A study of Mus musculus with 8 samples.

Results

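The receptor chains for IL-6, IL-12, IL-23 and related cytokines were described here as 8 genes, Il23r, Il12rb1, Il12rb2, Il6ra, Il6st, Il27ra, Lifr and Il11ra1. They were chosen by symbol from the 22829 genes of the deposited expression table, by a rule that uses no expression value, though the family was picked for description with earlier results of these samples known. All 8 were present, and all 8 had a mean of at least 10 normalized counts over the 8 samples, the minimum that 16982 genes met and that was required for testing. RNA seq had been run on 4 samples of WT-ROR-γt cells and 4 of K187R-ROR-γt cells. Every sample was made from CD4+ T cells of ROR-γt-/- mice, isolated from spleen with magnetic beads, given ROR-γt back by a lentivirus and cultured under Th17-polarizing conditions. ROR-γt is the transcription factor that directs Th17 differentiation. In the K187R form the lysine that receives the small modifier SUMO is replaced by arginine, so the form is SUMOylation-defective. The comparison asked what the loss of this modification does to transcripts of the cells. ROR-γt-/- cells without added ROR-γt were not analysed here, and the factor came from a viral vector rather than from its own gene. The age, sex and number of the donor mice were not given in the sources used here. The deposited labels name ROR-γt-/- derived cells in both groups, whereas the short design text speaks of WT and mutant mice. Neither states whether the 4 samples of a group came from separate mice or cultures, so p-values measure the spread between these samples, which may be in part technical. Xist, given below, was high in some samples of each group and low in the others.

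These chains work in pairs and share partners. The IL-23 receptor is made of Il23r and Il12rb1, and the IL-12 receptor of Il12rb2 and the same Il12rb1. The cytokines themselves also share a subunit, p40. Il6st encodes gp130, the signalling chain that Il6ra, Il27ra, Lifr and Il11ra1 join for IL-6, IL-27, LIF and IL-11. Signals through these receptors run over Janus kinases to STAT factors, with STAT3 prominent below IL-6 and IL-23 and STAT4 below IL-12. IL-6 starts Th17 differentiation, IL-23 maintains Th17 cells and their inflammatory character, IL-12 favours Th1 cells, and IL-27 restrains the Th17 program.

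Depth ran from 52456804 to 74676721 reads on genes in a sample, and values are given as normalized counts, the reads of a gene divided by 1 size factor per sample. A count of 3 reads, the smallest taken as detectable, equalled 2.54 to 3.56 normalized counts. The T cell markers Cd3e, Cd3g, Cd4 and Trac summed to 74570 to 91376 normalized counts, and the Th17 markers Il17a, Il17f and Ccr6 were present in all samples. Markers of other cells were present as well, with all 4 myeloid markers (Lyz2, Csf1r, Itgam and Cd68) detected and summing to 20229 to 60563 in WT and 34908 to 63578 in K187R samples. Each of the 4 had a higher estimate in K187R samples (median log2 fold change 0.46) and 0 of them an unadjusted limma p-value under 0.05, and their part in the receptor values was not tested. The 2 CD8 markers summed to 387 to 1141 and the 3 B cell markers to 165 to 927, and the NK cell markers Ncr1 and Klrb1c had means of 3.06 and 10.7. The markers of regulatory T cells, Foxp3 and Il2ra, were abundant, with Foxp3 at 6121 to 17297 normalized counts. Both had lower estimates in K187R samples (log2 fold changes of -0.34 and -0.35, adjusted p of 0.923 and 0.921 from limma) and were lowest in set 2 described next, and their part in the receptor values was not tested. Over 16902 genes outside the lists used here, the samples fell into 3 sets that did not follow the groups. WT 1, WT 3 and K187R 1 formed set 1, WT 2, K187R 2 and K187R 3 formed set 2, and WT 4 and K187R 4 formed set 3. Xist, the transcript of the inactive X chromosome, was high in the 3 samples of set 2 alone (13564 to 17373 normalized counts against 3.56 to 23.7). The sets were found after the data were seen. What the sets stand for was not tested.

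Promoter sequences were taken for Il23r and Il12rb2, the chain with the largest difference between groups and the only chain with a lower estimate in K187R samples. Both genes lie side by side on the minus strand of chromosome 6 in GRCm38, with Il23r at 67422932 to 67491855 and Il12rb2 at 67291318 to 67376188. The stretch between them is 46.7 kb long and holds 4 annotated genes, 0 of them protein coding. The sequences below are from RefSeq on GRCm38.p6, read 5′ to 3′ on the gene's strand from 250 bases before to 50 after the annotated start. The Il23r promoter is at chr6:67491806-67492105 and the Il12rb2 promoter at chr6:67376139-67376438. Capitals mark AGGTCA on either strand in Il23r, the core of the element bound by ROR factors, and TTCNNNGAA in Il12rb2, the spaced repeat that STAT factors bind.
Il23r: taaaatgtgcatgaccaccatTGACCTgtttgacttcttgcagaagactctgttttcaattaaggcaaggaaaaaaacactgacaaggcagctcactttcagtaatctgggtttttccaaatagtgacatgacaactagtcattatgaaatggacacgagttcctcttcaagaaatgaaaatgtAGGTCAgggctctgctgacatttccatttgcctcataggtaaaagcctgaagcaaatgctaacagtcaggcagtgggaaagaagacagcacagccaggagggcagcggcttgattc
Il12rb2: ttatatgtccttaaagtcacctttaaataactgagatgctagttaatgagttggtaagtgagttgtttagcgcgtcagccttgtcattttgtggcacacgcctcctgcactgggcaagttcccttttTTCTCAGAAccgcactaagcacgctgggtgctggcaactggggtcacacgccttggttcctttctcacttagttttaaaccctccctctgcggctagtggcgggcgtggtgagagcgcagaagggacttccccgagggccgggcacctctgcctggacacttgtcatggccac

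AGGTCA was found at 2 places in the Il23r promoter, starting 229 and 66 bases upstream of the start, the first of them on the opposite strand. Of all 32851 promoters of the same length, 16.3% held at least 1 match and 1.81% at least 2. The Il12rb2 promoter held no AGGTCA and held TTCNNNGAA once, 123 bases upstream, a motif found in 8.30% of all promoters. Matches were sought on both strands, and none of these overlapped another. TGANTCA, the element of AP-1 factors, was found in 7.81% of all promoters and in no chain's promoter. Promoters were listed for 6 of the 8 chains, with Il12rb1 and Il27ra not matched. Among the others, the first of the Lifr promoters held AGGTCA once, 247 bases upstream, and none held TTCNNNGAA. A match in these letters is a description of the sequence and not evidence that a factor binds there.

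Levels were compared between chains after division by the length of their annotated exons. Il27ra ranked first with a median of 2219 normalized counts per kb over the 8 samples, followed by Il6st with 1655 and Il6ra with 935. Il12rb1 had a median of 413 per kb. The chains specific to IL-12 and IL-23 were lower, with medians of 155 per kb for Il12rb2 and 54.1 for Il23r. Il11ra1 lay between them at 106, and Lifr was lowest at 4.91. The ranges over samples did not overlap between Il6st and Il6ra, between Il6ra and Il12rb1, between Il12rb1 and Il12rb2, or between Il23r and Lifr. Il27ra was above Il6st in 8 of 8 samples although their ranges overlapped. Il12rb2 exceeded Il11ra1 in 5 of 8 samples only, so the order of this pair was not set beyond the spread. Il11ra1 exceeded Il23r in 8 of 8 samples. The level and rank of Il12rb2 are uncertain, since 40.0% of its exonic bases overlap the gene Serbp1 and the strand setting is not stated.

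**Figure D1:**
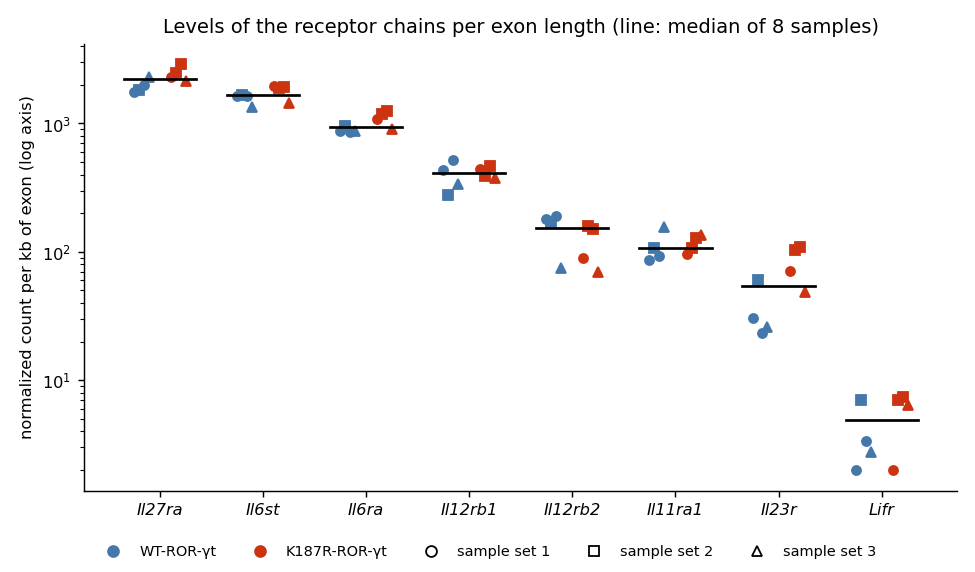
Normalized counts per kb of annotated exon, on a log axis, for each receptor chain in each of the 8 samples, with WT-ROR-γt samples in blue, K187R-ROR-γt samples in red, symbols for the 3 sample sets and a line at the median. Medians run from 2219 per kb for Il27ra to 4.91 per kb for Lifr.

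Between the groups, 7 of the 8 chains had a higher estimate in K187R samples and 1, Il12rb2, a lower one, while 48.4% of all genes tested had a higher estimate. No chain passed an adjusted p-value of 0.05 (limma, Benjamini-Hochberg over 16982 genes), and neither did any gene of the table, so percent called was 0.0%. At an unadjusted p-value under 0.05 stood 3 of the 8 chains, Il23r, Il6ra and Il27ra, all higher in K187R samples, against 746 of all genes (4.39% in either direction, 2.75% higher and 1.64% lower in K187R). With edgeR 0 genes and with DESeq2 27 genes passed the adjusted threshold, none of them a receptor chain. The median log2 fold change of the chains was 0.25, beside -0.01 over all genes tested. In no chain did the groups separate completely, which occurred in 2.46% of all genes (1.47% higher and 0.989% lower in K187R). With the 3 samples of high Xist left out, 1 chain, Il23r, was at an unadjusted p-value under 0.05, beside 2.01% of all genes in that fit. With both samples numbered 4 left out there were 4, Il6st being added, beside 11.5% of all genes. With the sample set as a factor or the replicate number as a block there were 5, Il6st and the lower Il12rb2 being added, beside 8.21% and 12.0% of all genes, and 0 chains passed the adjusted threshold in any of these fits.

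**Figure D2:**
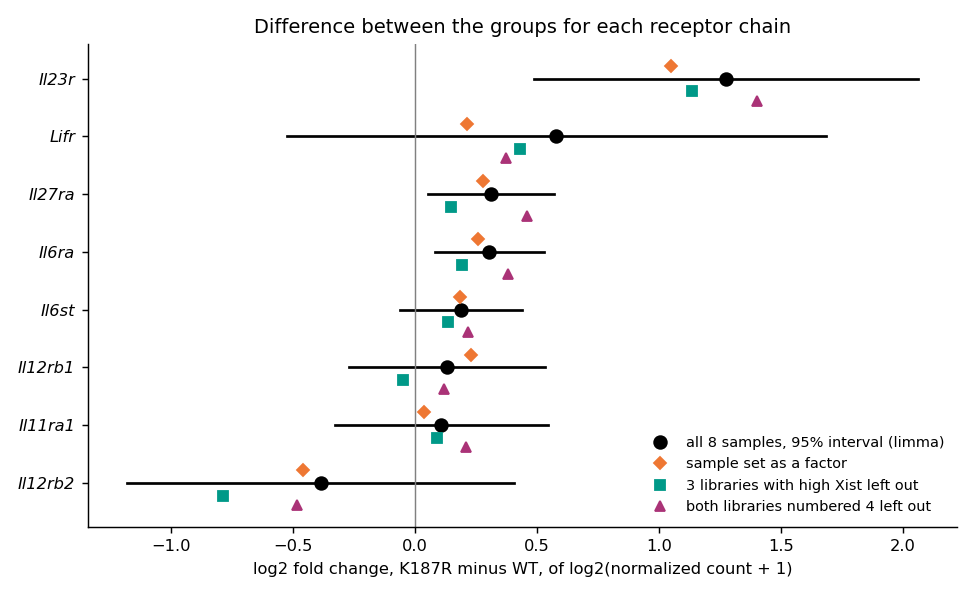
Log2 fold change (K187R minus WT, on log2 of the normalized count + 1) of each receptor chain, with black points and 95% intervals from limma over all 8 samples and coloured points for fits with the sample set as a factor, without the 3 samples of high Xist and without both samples numbered 4. The interval lies above 0 for Il23r, Il27ra and Il6ra, and the point for Il12rb1 without the samples of high Xist is below 0, at -0.05.

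Il23r (ENSMUSG00000049093), the chain that gives the receptor its specificity for IL-23, showed the largest difference. It had 76.0, 149, 57.5 and 64.5 normalized counts in WT 1 to 4 and 176, 258, 272 and 120 in K187R 1 to 4. WT 2 was the highest of its group and lay above K187R 4, the lowest of the other, and 3 of 4 K187R samples exceeded every WT sample. The means were 86.8 ± 42.2 and 207 ± 71.5 (SD, n = 4 each), which corresponds to a log2 fold change of 1.27 (standard error 0.351) or 2.42-fold, with a 95% interval from 1.40 to 4.18-fold. The adjusted p-value was 0.921 (limma), and the exact two-sided permutation test of this chain gave p = 0.0571, where 0.0286 is the smallest that 4 samples against 4 can give. Each value rests on 64 to 258 reads, which carry a counting error of 12.5% at the lowest and 6.23% at the highest count, against a spread between samples of 48.6% in WT and 34.6% in K187R. Set 2, where Il23r was highest within each group, held 1 WT sample and 2 K187R samples. With the sample set as a factor the log2 fold change was 1.05, and without the 3 samples of high Xist it was 1.14. Within sets K187R samples were above WT samples in all 3 sets. This order in all 3 sets also held for Il6ra and Il6st, and it held for 8.94% of all genes tested. The study displayed Il23r among genes it had selected as upregulated from these samples, so its direction here is not independent evidence. The study also reported higher Il23r in K187R-ROR-γt cells by real-time PCR, a measure that was not examined here.

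Il12rb1 (ENSMUSG00000000791, chromosome 8, 70808449 to 70821424), the chain that IL-12 and IL-23 receptors share, had 1787, 1144, 2118 and 1384 normalized counts in WT and 1811, 1607, 1907 and 1554 in K187R samples. The K187R values all lay inside the range of WT. Its log2 fold change was 0.13 (standard error 0.178, 95% interval -0.27 to 0.53), with an adjusted p-value of 0.932 (limma). The sign depended on WT 2, the lowest sample, without which the estimate was -0.02.

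**Figure D3:**
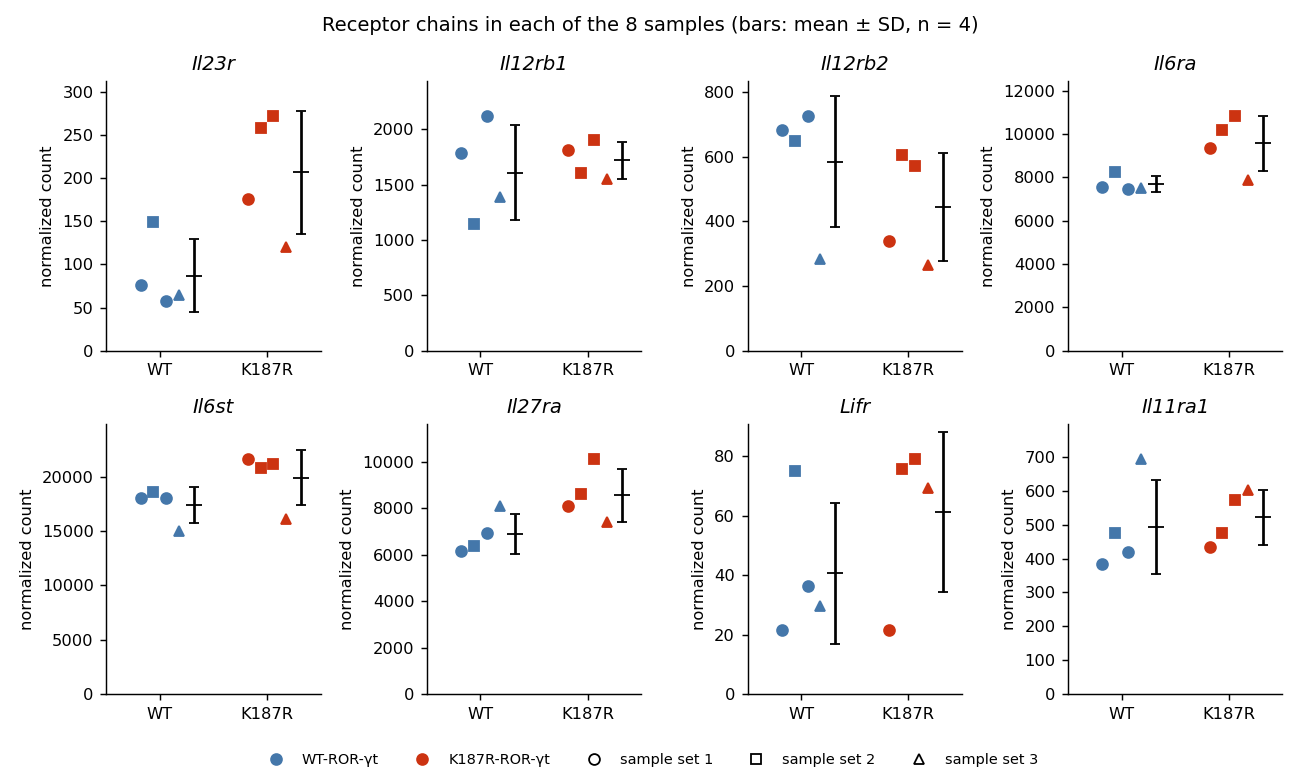
Normalized counts of each receptor chain in the 8 samples, on axes that start at 0, with blue points for WT-ROR-γt, red points for K187R-ROR-γt, symbols for the 3 sample sets and bars for the mean ± SD (n = 4). The groups overlap in every panel, and for Il23r the overlap consists of WT 2 at 149 and K187R 4 at 120.

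Il12rb2 (ENSMUSG00000018341), which completes the IL-12 receptor and is typical of Th1 cells, had 681, 647, 725 and 284 normalized counts in WT and 339, 604, 570 and 266 in K187R samples. WT 4 stood well below the other WT samples, and only K187R 4 was lower than all of WT. The means were 584 ± 203 and 445 ± 168 (SD, n = 4 each). The estimated log2 fold change was -0.39 with a 95% interval from -1.18 to 0.41, and the adjusted p-value was 0.922 (limma). Within sets, K187R samples were below WT samples in every set, by -1.05, -0.14 and -0.10 on the log2 scale, a pattern found in 4.93% of all genes tested. Without WT 4 the log2 fold change was -0.70, with an adjusted p-value of 0.372, and without K187R 4 it was -0.17. Of the exonic bases of Il12rb2, 40.0% (1519 bases) overlap Serbp1, a gene on the other strand with 37762 to 51996 normalized counts and a log2 fold change of -0.01. Whether counting used the strand is not stated, so Il12rb2 and Serbp1 reads in this stretch cannot be told apart, and the values of Il12rb2 are uncertain for that reason. The Th1 cell markers Tbx21, Ifng and Cxcr3 had log2 fold changes of 0.01, 0.05 and 0.31 with adjusted p-values of 0.998, 0.979 and 0.921 (limma).

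The balance between the IL-23 and the IL-12 specific chain was then compared within each sample, because a difference of log2 values inside a sample does not depend on its scaling. The count of Il12rb2 was 8.95, 4.34, 12.6 and 4.41 times that of Il23r in WT 1 to 4, and 1.92, 2.34, 2.10 and 2.21 times in K187R 1 to 4. The groups did not overlap, and the K187R samples lay close together. On the log2 scale Il23r minus Il12rb2 was -2.75 ± 0.76 in WT and -1.09 ± 0.12 in K187R samples (SD, n = 4 each), a difference of 1.66. The exact two-sided permutation test gave p = 0.0286, the smallest possible for this design, and 0.171 after Benjamini-Hochberg adjustment over the 6 differences tested. Permuted within the 3 sets, the difference was 1.47 with an exact p of 0.0556, again the smallest possible. Measured against Il12rb2 in the same way, all K187R samples lay above all WT samples for 145 of 16981 genes (0.854%), and the groups separated in either direction for 0.86%. The pair was named with the Il23r result known, and the overlap of Il12rb2 with Serbp1 bears on it too.

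Il23r minus Il12rb1, the balance inside the IL-23 receptor, was higher in K187R samples by 1.14 with overlapping groups (exact permutation p = 0.0857). Its p was 0.257 when adjusted over the 6 differences. Without WT 2 this difference was 1.59 with an exact permutation p of 0.0286, and without each other sample the exact p was 0.0857 to 0.171. For Il12rb2 minus Il12rb1, the balance inside the IL-12 receptor, the difference was -0.52 (exact permutation p = 0.2). Permuted within the 3 sets, these differences were 0.81 and -0.65, each also with the smallest exact p possible, 0.0556. For the chains that join gp130 the differences were 0.12 for Il6ra minus Il6st (exact permutation p = 0.229), 0.12 for Il27ra minus Il6st (exact permutation p = 0.486) and 0.39 for Lifr minus Il6st (exact permutation p = 0.6).

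**Figure D4:**
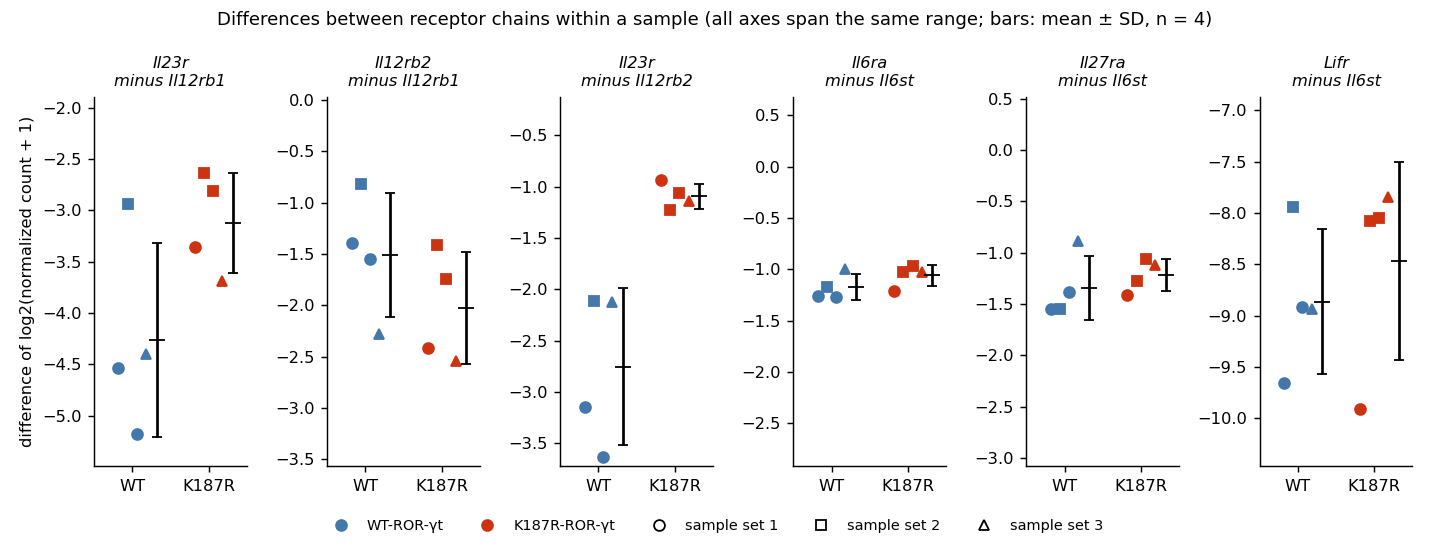
Difference of log2(normalized count + 1) between the chains of 6 pairs in each sample, for WT-ROR-γt (blue) and K187R-ROR-γt (red) samples, with symbols for the 3 sample sets, bars for the mean ± SD (n = 4) and axes that all span the same range. Only in the panel of Il23r minus Il12rb2 do the groups not overlap, with WT between -3.63 and -2.11 and K187R between -1.22 and -0.94.

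Among the chains of the gp130 family, Il6ra (ENSMUSG00000027947, chromosome 3, 89864059 to 89913196), which binds IL-6, had 7553, 8266, 7467 and 7511 normalized counts in WT and 9349, 10203, 10819 and 7891 in K187R samples. All K187R samples except replicate 4 were above every WT sample, and K187R 4 was below WT 2 alone. With means of 7699 ± 380 and 9566 ± 1268 (SD, n = 4 each), the log2 fold change was 0.30 (standard error 0.0993), or 1.23-fold with a 95% interval from 1.06 to 1.44-fold. The adjusted p-value was 0.921 (limma) and the exact permutation p was 0.0571. With the 3 samples of high Xist left out the log2 fold change was 0.19 with an unadjusted limma p-value of 0.120. Of its exonic bases, 2.80% overlap the antisense gene Gm42809, which had 72.1 to 104 normalized counts.

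Il27ra (ENSMUSG00000005465, chromosome 8, 84030294 to 84042589), the specific chain of the IL-27 receptor, had 6179, 6375, 6926 and 8084 normalized counts in WT and 8118, 8616, 10111 and 7430 in K187R samples. The samples numbered 4 ran against the rest, since WT 4 was the highest of its group and K187R 4 the lowest. The log2 fold change was 0.31 (standard error 0.115), or 1.24-fold with a 95% interval from 1.04 to 1.49-fold, at an adjusted p-value of 0.921 (limma) and an exact permutation p of 0.0571. Without both samples numbered 4 it was 0.46, and without the 3 samples of high Xist 0.15.

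Il6st (ENSMUSG00000021756, chromosome 13, 112464070 to 112510086), which encodes gp130, had 18099, 18646, 18051 and 14996 normalized counts in WT and 21622, 20848, 21177 and 16124 in K187R samples. Replicate 4 was the lowest sample of both groups, and the other K187R samples exceeded every WT sample. Its log2 fold change was 0.19 (standard error 0.112, 95% interval -0.06 to 0.44), with an adjusted p-value of 0.921 (limma) and an exact permutation p of 0.171. Within sets the differences were 0.26, 0.17 and 0.10.

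Lifr (ENSMUSG00000054263, chromosome 15, 7090614 to 7197489), the chain that binds LIF, was close to the limit of what the depth can resolve, with 18 to 78 reads per sample. It had 21.4, 75.0, 36.4 and 29.6 normalized counts in WT and 21.5, 75.9, 79.0 and 69.3 in K187R samples. Low and high samples occurred in both groups, and the log2 fold change of 0.58 had a 95% interval from -0.52 to 1.68 (adjusted p = 0.921 from limma). Il11ra1 (ENSMUSG00000073889, chromosome 4, 41699989 to 41769474), the chain specific for IL-11, had 384, 475, 418 and 693 normalized counts in WT and 434, 475, 573 and 603 in K187R samples. Its K187R values lay inside the range of WT, with a log2 fold change of 0.11 (95% interval -0.33 to 0.55, adjusted p = 0.950 from limma). A near-identical copy, Il11ra2, was listed with 0 to 9.51 normalized counts, so the division of reads between the copies is uncertain.

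The chains also differed in how they varied across all 8 samples. The highest sample exceeded the lowest 4.73-fold for Il23r, 3.69-fold for Lifr and 2.73-fold for Il12rb2, but only 1.44-fold for Il6st and 1.45-fold for Il6ra. Il23r and Il6ra had alike profiles over the 8 samples (Pearson's r = 0.95 on log2 values), followed by Il6ra and Il6st (r = 0.82), while r was 0.06 for Il23r and Il12rb2. The lowest coefficient was that of Il12rb2 and Il11ra1 (r = -0.68). These coefficients describe 8 samples that share groups and sets, and no test was attached to them. Among 12134 genes with a mean of at least 100, those most like Il23r were Dock5 (r = 0.99), Rassf3, Txnip, Abcc4 and P2rx7 (each r = 0.98). Il17a, the hallmark cytokine of Th17 cells, ranked 16 with r = 0.97, the chemokine receptor gene Ccr6 ranked 26 with r = 0.96, and Il6ra ranked 37. Il17f ranked 65 (r = 0.93), Il1r1 251 (r = 0.86), and the ligand genes Il12b and Il6 320 and 528 (r = 0.85 and 0.80). Within each group Il23r was highest in the samples of set 2.

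Of the 55 genes listed around the receptors, 45 were tested, 9 had a mean under 10 and 1 was not among the listed genes. Past the adjusted threshold stood 0 of the 45 in limma and edgeR and 1, Il1r1, in DESeq2. At an unadjusted limma p-value under 0.05 were 4, Il1r1, Ptpn6, Il17a and Il17f, all higher in K187R samples, and 0 were lower. Of all genes tested, 2.75% were higher and 1.64% lower in K187R samples at that threshold. The median log2 fold change of the 45 was 0.06. These lists were drawn up with earlier results of the same samples known.

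Il1r1, the receptor that brings IL-1 signals into Th17 cells, had 642, 872, 571 and 801 normalized counts in WT and 1351, 1430, 1227 and 1238 in K187R samples. All K187R samples were above all WT samples, as in 1.47% of all genes tested. The log2 fold change was 0.88 (standard error 0.140), with adjusted p-values of 0.344 from limma and 3.24e-05 from DESeq2. Ptpn6, the phosphatase SHP-1 that dampens cytokine receptor signals, had 6900 to 7943 in WT and 8457 to 10792 in K187R samples, again without overlap, and a log2 fold change of 0.31 (adjusted p = 0.921 from limma). Il17a had means of 3069 ± 1106 and 5018 ± 1156 (SD, n = 4 each) and Il17f of 15098 ± 4967 and 21495 ± 3745, with overlapping groups in both.

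The kinases and STAT factors below the receptors had estimates near 0. Among 4 Janus kinases the log2 fold change was 0.08 for Jak1, -0.05 for Jak2 and 0.19 for Jak3, and among 5 STAT factors it was -0.12 for Stat3, -0.07 for Stat5b and 0.11 for Stat5a. None of these 9 genes had an unadjusted limma p-value under 0.05. Stat4, the factor below the IL-12 receptor and named for that role, had 1891 ± 475 normalized counts in WT and 1868 ± 446 in K187R samples (SD, n = 4 each). Of 11 inhibitors, Socs3, which binds gp130 and blocks its kinases, had the highest mean, with 18644 ± 1761 in WT and 22226 ± 3533 in K187R samples and a log2 fold change of 0.24 (adjusted p = 0.921 from limma). Adam10 and Adam17, proteases that shed Il6ra from the cell surface, had log2 fold changes of -0.05 and 0.03. Of the STAT3-linked Th17 genes, Maf, Irf4 and Hif1a had the highest means and log2 fold changes of 0.04, 0.00 and -0.18. Of 8 other receptor and receptor-like genes listed, 5 were below the minimum, at means of 1.22 to 8.17. Crlf2, which is outside the gp130 family, and Csf3r passed the filter. The estimates of Crlf2 and Csf3r were 0.16 and 0.88 on the log2 scale (adjusted p of 0.930 and 0.921 from limma).

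Among the ligands of these receptors, Il12b, Il6, Il12a and Ebi3 stood apart by sample set. Of 12 ligand genes, 8 were tested, and all 8 had a higher estimate in K187R samples without any reaching an unadjusted limma p-value under 0.05. A higher estimate was found for 48.4% of all genes tested. Set 2 held 1 WT sample and 2 K187R samples, and the part of this imbalance in the ligand estimates was not tested. Il12b, which encodes the p40 subunit common to IL-12 and IL-23 and is best known from myeloid cells, had 608, 909 and 855 normalized counts in the 3 samples of set 2 and 16.6 to 76.8 in the other samples. Il6 had 474, 598 and 459 in set 2 and 77.8 to 122 elsewhere. Il12a, the other subunit of IL-12, had 47.1 to 66.4 in set 2 and 9.59 to 18.6 elsewhere, and Ebi3, a subunit of IL-27, had 141 to 218 in set 2 and 66.5 to 108 elsewhere. These 4 genes were picked out after their values were seen. The myeloid marker Csf1r was likewise highest in set 2, at 4220 to 5074 against 1974 to 2782 elsewhere, whereas Lyz2, Itgam and Cd68 were highest in set 3. The sum of the 4 markers, mostly Lyz2, was 42073 to 48421 in set 2, 20229 to 34908 in set 1 and 60563 to 63578 in set 3. The part of such cells in the ligand values was not tested. Clcf1, Osm and Lif, the ligand genes with the highest means, had log2 fold changes of 0.04, 0.07 and 0.44 with adjusted p-values of 0.986, 0.969 and 0.921 from limma. Il23a, which encodes the p19 subunit of IL-23, was low, with 2.38, 5.77, 5.92 and 4.36 normalized counts in WT and 7.91, 7.59, 10.5 and 7.11 in K187R samples. Its groups did not overlap, but its mean of 6.45 was under the minimum for testing and its lowest value was under the count taken as detectable. It was named here because its groups did not overlap. All K187R samples lay above all WT samples in 1.47% of the genes tested, and the share among genes under the minimum was not computed. In bulk samples, more transcript per cell and more cells of a type that makes it cannot be told apart, for ligands and receptor chains alike.

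**Figure D5:**
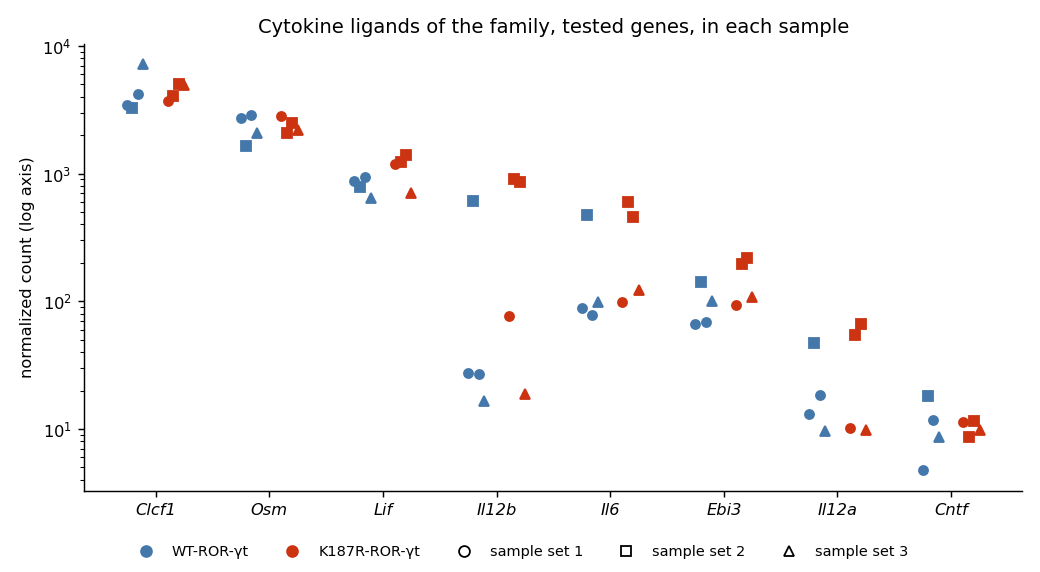
Normalized counts, on a log axis, of the 8 tested ligand genes of the family in each sample, with WT-ROR-γt samples in blue, K187R-ROR-γt samples in red and symbols for the 3 sample sets. The 3 squares of set 2 stand apart for Il12b, at 608 to 909 against 16.6 to 76.8, for Il6, at 459 to 598 against 77.8 to 122, for Ebi3, at 141 to 218 against 66.5 to 108, and for Il12a, at 47.1 to 66.4 against 9.59 to 18.6.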

How the data were processed

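RNA was reverse transcribed after poly-A selection and sequenced in pairs, with reads trimmed by Cutadapt, aligned to GRCm38 by HISAT2 and counted on GENCODE M15 by featureCounts, according to the study's methods. The library kit is named differently by the labels and the paper. The strand setting and the treatment of reads that match several genes are not given in the sources used here. The values deposited by the authors are a signal per gene, normalized counts obtained by dividing reads by 1 DESeq2 size factor per sample. All values (100%) were whole multiples of 1 read within 0.01 of a read, so reads were recovered for alternatives. No per-sample column was left unused.

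Genes with a mean of 10 or more (16982) were fitted on log2(normalized count + 1) with limma, using lmFit and eBayes with its trend option, and p-values were adjusted by the Benjamini-Hochberg method at a threshold of 0.05. For single chains and differences between chains, the 8 samples were permuted exactly and two-sided (70 arrangements). As alternatives, each sample was left out in turn, quantile normalization was applied, the replicate number entered as a block, the pseudocount was set to 0.5 or 5, and the minimum mean was dropped or raised to 50. Further alternatives were edgeR's quasi-likelihood test and DESeq2 on recovered reads. The sample set as a factor, permutation within sets and 2 sets of left-out samples were added after the data were seen. The sets came from Ward clustering into 3 of log2 values. Genes were annotated with GENCODE M21, which holds 22784 of the 22829 identifiers. The fits were tested on simulated counts with the same variability setting for every gene and without sample sets. That test therefore does not show how the fits behave with the sets found here. Intervals and the 3-read floor cover counting error only where they refer to reads.

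The members and gene lists were chosen with earlier results of these data known. Named genes were all 8 chains, listed genes at an unadjusted p-value under 0.05 or with groups that do not overlap, otherwise at most the 3 of each list with the highest mean, and the 5 genes most correlated with Il23r. Cell type markers were named as a check of the samples, and Stat4, Il12b, Il6, Il12a, Ebi3 and Ptpn2 outside this rule, after their values were seen. Also outside it were Xist, genes that overlap or duplicate a chain, and genes past the threshold in an alternative fit. The values of 1 further gene are not reported here. Software comprised Python 3.11.15 (numpy 2.4.6, pandas 2.3.3, matplotlib 3.10.9) and R 4.3.3 with DESeq2 1.42.0, edgeR 4.0.16 and limma 3.58.1.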

Additional observations from a re-analysis of the deposited data

Results flagged for a closer look

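In 118 groups of 4 values examined for a sample far from the other 3 (Dixon's test on log2 values), 9 such samples were found, where chance gives about 1 in 20, or 5.9. Of these, 5 were values of receptor chains in normalized counts. Il12rb2 was 284 in WT 4 against 647 to 725 in the other WT samples. Il6st was low in replicate 4 of both groups, at 14996 in WT against 18051 to 18646 and at 16124 in K187R against 20848 to 21622. Il6ra was 8266 in WT 2 against 7467 to 7553, and Lifr was 21.5 in K187R 1 against 69.3 to 79.0.

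Among the other values, Il12b was 608 in WT 2 against 16.6 to 27.3 in the other WT samples, and Il6 was 474 in WT 2 against 77.8 to 98.5. Ptpn2, a phosphatase that acts on Janus kinases, was 4188 in WT 4 against 5200 to 5424. The log2 difference of Lifr minus Il6st was -9.91 in K187R 1 against -8.08 to -7.84. With 1 sample left out, the log2 fold change ranged from -0.70 (without WT 4) to -0.17 (without K187R 4) for Il12rb2 and from 0.33 (without WT 1) to 1.02 (without K187R 1) for Lifr, never past the adjusted threshold.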

How the results depend on the processing

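Except for Il12rb1, each chain kept the direction of its log2 fold change under all 19 alternatives, and none passed the adjusted threshold in any. The range was 1.05 to 1.57 for Il23r (adjusted p at least 0.111), 0.19 to 0.39 for Il6ra, 0.15 to 0.46 for Il27ra, 0.12 to 0.29 for Il6st, 0.21 to 1.02 for Lifr, 0.0012 to 0.28 for Il11ra1 and -0.79 to -0.17 for Il12rb2. For Il11ra1 the sign rests on an estimate close to 0 without WT replicate 1. Il12rb1 turned to -0.0498 without the 3 samples of high Xist and ranged from -0.0191 (without WT replicate 2) to 0.277 with 1 sample left out. Over all genes, 0 passed as reported (746 at an unadjusted p-value under 0.05), 27 with DESeq2 (15 higher and 12 lower), 1 with the sample set as a factor (Ccr6) and 4 without both samples numbered 4. With 1 sample left out the count was 0 to 4, the 4 (Crem, Ifngr1, Rnf125 and Xkrx) being found without WT replicate 4. Of the listed pathway genes, 1 (Il1r1) passed with DESeq2. Il23r minus Il12rb1 ranged from 0.84 to 1.59 with 1 sample left out, with exact permutation p-values from 0.0286 (without WT replicate 2 alone) to 0.171.

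Il23r minus Il12rb2 ranged from 1.37 to 1.87 with 1 sample left out, where the exact permutation p cannot move, since the groups are separate with all samples. Permuted within sets it was 1.47 (exact p = 0.0556), the smallest p possible. Pairing by replicate number left it at 1.66 with an exact sign-flip p of 0.125, also the smallest possible. The replicate numbers did not pair the samples throughout, since deviations correlated at 0.59, 0.66, -0.09 and 0.63 for numbers 1 to 4 and WT 3 was most like K187R 1. With the replicate number as a block, 0 genes passed and 2046 had an unadjusted p-value under 0.05. Depth limits Lifr, at 18 to 78 reads, and Il23r, at 64 to 258, more than the other chains.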
